A study of Mus musculus with 8 samples.

Results

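The cytosolic ribosomal protein genes are the genes for the proteins of the ribosome that works outside the mitochondria. Members were taken by symbol: Rpl or Rps followed by a number, with an optional a, x or l, and Rplp0, Rplp1, Rplp2 and Rpsa. The rule found 82 genes among 20659 genes with a named probe, 50 with large subunit names and 32 with small subunit names. They were measured by 171 probes, and the probe with the highest mean log2 signal stood for each gene. All 82 passed the filter on dim probes, and 81 of them were well above background on all 8 arrays. The name rule leaves out ribosomal components with other names, which are given separately.

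Expression was measured on 1-colour Agilent arrays in the myocardium, the heart muscle, of untreated male mice. The arrays were labelled NPRA-/- (3 arrays) and NPRA+/+ (5 arrays), and the comparison asks how gene expression differs where NPRA is missing. NPRA, encoded by Npr1, is the guanylyl cyclase receptor for atrial and B-type natriuretic peptides. The deletion was made from a floxed Npr1 allele and is cardiac-specific per the series title, while no label names the Cre driver, the ages or the alleles of the NPRA+/+ mice. The series text speaks of m6A, whereas the files are of an expression design and were read as transcript signal. Every level below is a log2 signal relative to the 75th percentile of its own array. Every difference is NPRA-/- minus NPRA+/+ on the log2 scale.

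A few facts of the whole series bear on what follows. The Npr1 signal lay at -6.42, -5.53 and -5.59 on NPRA-/- arrays, against -4.77, -6.14, -6.55, -6.00 and -5.93 on NPRA+/+ arrays, close to background (well above it on 2 of 3 and on 4 of 5 arrays), so the genotype of each array rests on its label. On each array 79.5% to 92.6% of probes stood well above background and no spot (0) was saturated. Precision is limited by how few arrays there are. Scanning took place on 4 days, and scan day 1 alone held both genotypes (replicates 2 and 3 of each). Arrays of equal scan date and time in the headers formed 6 scan time groups, and none (0) held both genotypes. On scan day 1, therefore, genotype and scan time group cannot be told apart. The labels count the NPRA+/+ arrays as 5 biological repetitions, but their source names give replicates 1, 2 and 3 the same number. NPRA-/- replicate 1 was the only array of scan day 3, and NPRA+/+ replicate 1 the only one of scan day 4. With this scaling the median fitted change over all 35329 probes tested was 0.21, so changes of single genes are given relative to that shift, with the SE of the fit. The adjusted p of limma tests the fitted change against 0. In whole tissue, fewer cells of a type and less RNA per cell cannot be told apart.

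Ribosomal proteins assemble with ribosomal RNA into a small subunit, which decodes the mRNA, and a large subunit, which joins amino acids. Many of their mRNAs begin with a terminal oligopyrimidine (TOP) tract, a C followed by further C and T bases, through which mTOR signalling controls their translation. Heart growth is known to go with more ribosome production. Several members have a paralog of restricted expression, such as Rpl3l, which is found in heart and skeletal muscle.

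RefSeq's table of start sites (build GRCm38.p6) held 61 of the 82 genes. The windows of 5 members are shown, because they include the 3 members with the smallest p, the muscle paralog and, for its long run of C and T, Rps9. Each runs 20 bases before and 20 bases from the annotated start, 5′ to 3′ on the plus strand, and capitals mark the longest run of C and T that touches the 5 bases either side of the start.
Rplp2 (chr7:141447631-141447670, plus strand): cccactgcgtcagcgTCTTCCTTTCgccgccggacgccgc
Rps9 (chr7:3704021-3704060, plus strand): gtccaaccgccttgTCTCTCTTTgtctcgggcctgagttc
Rpl37 (chr15:5116593-5116632, plus strand): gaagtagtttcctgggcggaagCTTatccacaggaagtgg
Rps16 (chr7:28350669-28350708, plus strand): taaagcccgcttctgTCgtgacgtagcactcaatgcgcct
Rpl3l (chr17:24727806-24727845, plus strand): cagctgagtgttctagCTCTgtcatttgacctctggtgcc
The capitals form a run of 10 bases in Rplp2 and of 9 in Rps9, against 3 in Rpl37, 2 in Rps16 and 4 in Rpl3l. Of these 5, Rplp2 alone had a C at the annotated start, and Rps9 had a T there. Rpl3l had 2 entries, of which 1 was used. Of the 61 genes, 13 (21.3%) had a C at the annotated start that opened a run of at least 5 pyrimidines, compared with 2.53% of 27025 promoters in the table. A run of at least 8 touching the start stood in 22 (36.1%), compared with 9.68% of all. Among motifs searched on both strands in the 300 bases around the start, ACTTCCGG stood in 12 of 61 (19.7%, all promoters 3.93%), AAGATGGC in 5 (8.20%, all 2.86%), TATAAA in 7 (11.5%, all 14.1%) and GGGGCGGGG in 4 (6.56%, all 11.5%). These are letter matches at annotated starts and do not show where transcription began in these hearts.

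No ribosomal protein gene passed the test between the genotypes: 0 of 82 had an adjusted p under 0.05 (limma, lowest 0.0962), where 0.348% of all probes (123) did. With the repetition number as a replicate block both counts were 0. At an unadjusted p under 0.05 the count was 3 higher in NPRA-/- (3.66%) and 0 lower, where 18.3% of all probes were higher and 1.36% lower. Groups did not overlap for 7 members with all NPRA-/- arrays above (8.54%, all probes 14.1%) and for 1 with all below (1.22%, all probes 1.29%). The members' median fitted change was 0.21, that of all probes, and 41 lay above the shift and 41 below it. Relative changes ran between -0.50 and 0.45, with a median of 0.00 and a median SE of 0.18. Of the 82, 1 lay beyond 0.5 in either direction and 5 lay more than 2 SE from the shift. The shares of all probes at these cutoffs are not given, so neither count can be called high or low. Large subunit names had a median relative change of 0.01 (50 genes) and small subunit names of -0.05 (32 genes). All 19053 genes tested, with 1 probe each, had a median of -0.05. Other genes of like signal, 1142 whose mean level lay between the 10th and 90th percentiles of the members (3.31 to 5.99), had a median of -0.12, and 4.47% of them were at an unadjusted p under 0.05.

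**Figure D1:**
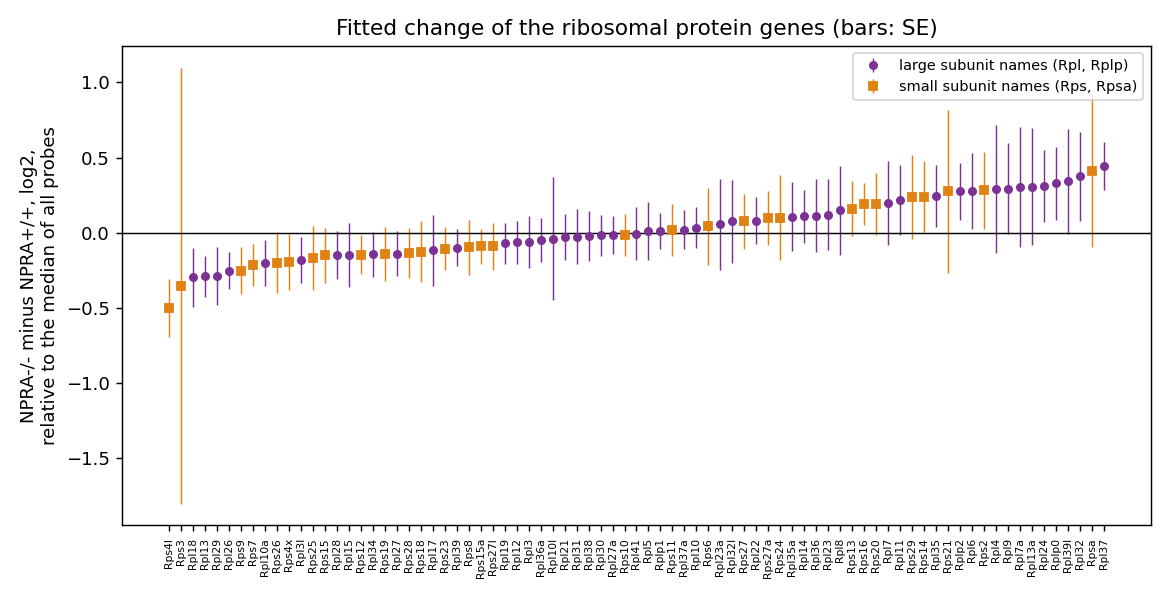
Fitted change of 79 of the 82 ribosomal protein genes, NPRA-/- minus NPRA+/+, on the log2 scale relative to the median of all probes (0.21), sorted, with bars of 1 SE and colours for large and small subunit names. Values run between -0.50 (Rps4l) and 0.45 (Rpl37), and the widest bar belongs to Rps3 (SE 1.45).

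The acidic stalk of the large subunit, which recruits elongation factors, is built by Rplp0, Rplp1 and Rplp2. All 3 lay above the shift, by between 0.01 and 0.33, and none of them (0) passed the adjusted test. Rplp2 was at 6.91, 6.70 and 6.69 on NPRA-/- arrays, against 6.58, 6.45, 5.90, 6.46 and 6.02 on NPRA+/+ arrays. Every NPRA-/- array lay above every NPRA+/+ array, and the relative change was 0.28 ± 0.19 (adjusted p = 0.213, limma). Rplp0, the protein on which the other two sit, was at 7.01, 6.44 and 6.35 on NPRA-/- arrays, against 6.62, 6.01, 6.04, 6.01 and 5.64 on NPRA+/+ arrays. Replicate 1 was the highest array of each genotype, the groups overlapped, and the relative change was 0.33 ± 0.24, or 0.15 without NPRA-/- replicate 1. Rplp1 was at 4.37, 4.22 and 4.19 on NPRA-/- arrays, against 4.14, 4.06, 4.05, 4.03 and 3.92 on NPRA+/+ arrays. Its groups did not overlap either, but the difference was that of all probes, at 0.01 ± 0.12 relative to the shift.

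Rpl37, a zinc-binding protein of the large subunit, had the smallest p of all members. It was at 6.12, 6.12 and 6.18 on NPRA-/- arrays, against 5.72, 5.22, 5.59 and 5.42 on NPRA+/+ arrays, with the spot of NPRA+/+ replicate 4 set to missing by its outlier flag. The NPRA-/- arrays lay close together and above every NPRA+/+ array measured. The relative change was 0.45 ± 0.16 and the adjusted p 0.0962 (limma). On scan day 1 alone the relative change was 0.58, with an adjusted p of 0.0491, and without NPRA+/+ replicate 1 the adjusted p was 0.0316. With quantile normalization on scan day 1 alone the relative change was 0.71, with an adjusted p of 0.132 (limma). Over all 8 arrays the relative change was 0.35 with quantile normalization and 0.20 with normexp. A single probe measured the gene.

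In several other large subunit genes at the upper end, replicate 1 was high in both genotypes. Rpl32 was at 6.43, 5.90 and 5.86 on NPRA-/- arrays, against 6.19, 5.58, 5.35, 5.49 and 4.81 on NPRA+/+ arrays. Rpl24 was at 5.81, 5.13 and 5.02 on NPRA-/- arrays, against 5.25, 4.72, 4.62, 4.95 and 4.48 on NPRA+/+ arrays. Rpl7a, whose introns hold snoRNAs, was at 6.46, 5.38 and 5.42 on NPRA-/- arrays, against 6.29, 5.18, 4.99, 5.13 and 4.62 on NPRA+/+ arrays. In all 3 genes replicate 1 was the highest array in each genotype and the groups overlapped. Their relative changes were 0.37 ± 0.29, 0.31 ± 0.24 and 0.30 ± 0.40, none past the threshold, and without NPRA-/- replicate 1 they were 0.22, 0.088 and -0.028. Rpl13a, known also as part of a complex that silences translation of inflammatory mRNAs, was at 5.78, 4.97 and 4.95 on NPRA-/- arrays, against 5.53, 4.95, 4.89, 3.75 and 4.48 on NPRA+/+ arrays. NPRA+/+ replicate 4 was its lowest array, and the relative change was 0.31 ± 0.39, with -0.13 on scan day 1 alone, 0.052 without NPRA-/- replicate 1 and 0.071 without NPRA+/+ replicate 4. Rpl39l, a dim member, was at -4.52, -4.35 and -3.53 on NPRA-/- arrays, against -4.86, -4.71, -3.85, -4.67 and -5.33 on NPRA+/+ arrays. Here NPRA-/- replicate 1 was the lowest NPRA-/- array and replicate 3 the highest, the groups overlapped, and the relative change of 0.34 ± 0.35 was 0.029 without NPRA-/- replicate 3. Rpl6 was at 0.28 ± 0.25 (0.17 without NPRA-/- replicate 1) and Rpl22 at 0.08 ± 0.16. Rpl10, which completes the subunit late in its maturation, had groups without overlap and a relative change of 0.03 ± 0.14.

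The lower end of the large subunit included Rpl18, Rpl13, Rpl29 and Rpl26. Rpl13 was at 5.21, 4.98 and 5.08 on NPRA-/- arrays, against 5.25, 5.29, 5.32, 5.08 and 4.93 on NPRA+/+ arrays. Rpl29, a protein also found at the cell surface, was at 5.26, 5.06 and 5.34 on NPRA-/- arrays, against 4.82, 5.47, 5.60, 5.24 and 5.36 on NPRA+/+ arrays. In both genes the groups overlapped, with relative changes of -0.29 ± 0.14 and -0.29 ± 0.19. Rpl18 was at -0.30 ± 0.19, with the spot of NPRA+/+ replicate 5 missing, and Rpl26, known to bind p53 mRNA, was at -0.25 ± 0.12. The fitted changes of these 4 lay between -0.09 and -0.05, close to 0.

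**Figure D2:**
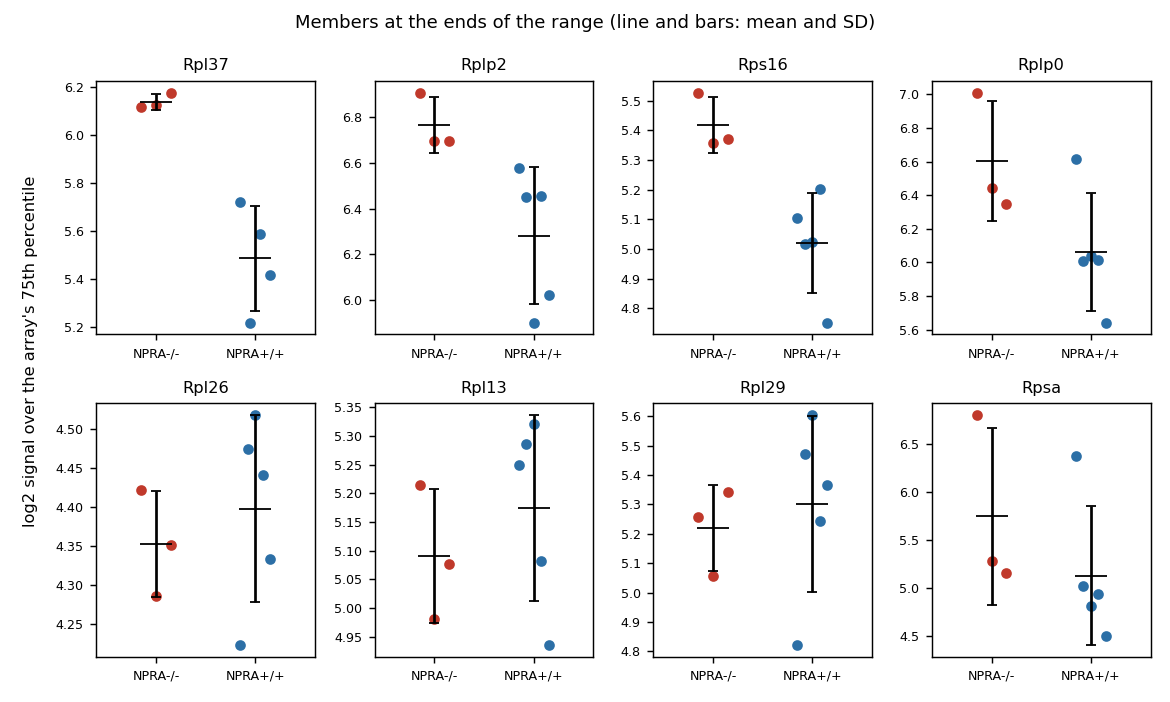
Levels of 8 members on each array (log2 signal over the array's 75th percentile, a separate axis for each gene), with NPRA-/- in red on the left and NPRA+/+ in blue on the right, and the mean and SD as line and bars. Rpl37, Rplp2 and Rps16 do not overlap between the genotypes with NPRA-/- above, Rpl26 and Rpl13 overlap, and for Rpsa 1 array of each genotype stands apart.

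Among small subunit genes Rps16 had the smallest p. It was at 5.53, 5.36 and 5.37 on NPRA-/- arrays, against 5.11, 5.02, 5.02, 5.20 and 4.75 on NPRA+/+ arrays. The groups did not overlap, and the relative change was 0.19 ± 0.14 (adjusted p = 0.172, limma), with 0.17 on scan day 1 but -0.078 with normexp and -0.083 as the mean over its probes. Rps13 was at 0.16 ± 0.18 and Rps29, one of the 4 brightest probes, at 0.24 ± 0.28.

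Rpsa, a small subunit protein that is also known as a laminin receptor, was at 6.80, 5.28 and 5.15 on NPRA-/- arrays, against 6.38, 5.02, 4.81, 4.93 and 4.50 on NPRA+/+ arrays. NPRA-/- replicate 1 and NPRA+/+ replicate 1 stood apart from the other arrays by 1.58 and 1.56, and the SE exceeded the relative change (0.41 ± 0.51). Rps3, which also acts in DNA repair, was at 4.72, 1.32 and 0.11 on NPRA-/- arrays, against 4.51, 1.32 and 0.76 on NPRA+/+ arrays, with the spots of NPRA+/+ replicates 4 and 5 missing. The replicate 1 array lay above the mean of the others by 4.00 in NPRA-/- and by 3.47 in NPRA+/+, and the relative change was -0.35 ± 1.45. These values belong to the brightest probe of Rps3, and its other probe had a relative change of -0.04 ± 0.29. Rps4l, annotated as a transcribed pseudogene on chromosome 6, was at 1.91, 2.25 and 1.76 on NPRA-/- arrays, against 2.02, 2.15, 2.71, 2.27 and 2.19 on NPRA+/+ arrays. The groups overlapped and the relative change, the lowest of all members, was -0.50 ± 0.19. Rps9 was at -0.25 ± 0.16.

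Members known from signalling or human disease did not pass the test either. Rps6, the substrate of S6 kinase, was at 5.79, 5.16 and 4.70 on NPRA-/- arrays, against 5.33, 5.06, 4.88, 4.94 and 4.62 on NPRA+/+ arrays. Replicate 1 was the highest array in each genotype, and the relative change was 0.04 ± 0.26, with -0.21 on scan day 1. Rpl5 and Rpl11, which bind Mdm2 when ribosome assembly is disturbed, had relative changes of 0.01 ± 0.19 and 0.22 ± 0.23. Rpl11 was at 6.21, 5.42 and 5.42 on NPRA-/- arrays, against 5.56, 5.39, 5.35, 5.09 and 4.91 on NPRA+/+ arrays, and without the other scan days its relative change was -0.12. Rps19, mutated in Diamond-Blackfan anaemia in humans, was among the 4 dimmest probes, at -0.14 ± 0.18.

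Paralogs were set against their partners within each array, which cancels a constant per array but not a normalization that varies with signal. With quantile normalization the relative changes of Rps27l and Rps27 were 0.075 and -0.10, against -0.09 and 0.08 in the main setting. Pair differences are given for the main setting only. Rpl3l replaces Rpl3 in striated muscle. Rpl3l was at 3.17, 2.89 and 2.75 on NPRA-/- arrays, against 2.66, 2.94, 2.96, 3.08 and 2.92 on NPRA+/+ arrays. Rpl3 was at 3.58, 3.50 and 3.67 on NPRA-/- arrays, against 3.00, 3.68, 3.62, 3.46 and 3.43 on NPRA+/+ arrays. The groups overlapped in both genes, and the difference of Rpl3l from Rpl3 changed by -0.12 ± 0.17 between the genotypes (SE, exact two-sided permutation p = 0.464 over 56 arrangements). For Rpl39l, a paralog best known from testis, against Rpl39 the value was 0.44 ± 0.36 (exact permutation p = 0.25). For Rps27l, known as a p53 target, against Rps27 it was -0.17 ± 0.08 (exact permutation p = 0.214), and for Rps4l against Rps4x -0.31 ± 0.25 (exact permutation p = 0.143). Rpl10l, a testis paralog, was well above background on 2 of 3 NPRA-/- arrays and 1 of 5 NPRA+/+ arrays, so its difference from Rpl10 was not tested. Adjusted over the 4 pairs tested, the lowest p was 0.333. The smallest two-sided p that this test can give with 3 against 5 arrays is 0.0357. The pairs were tested after the values had been seen.

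**Figure D3:**
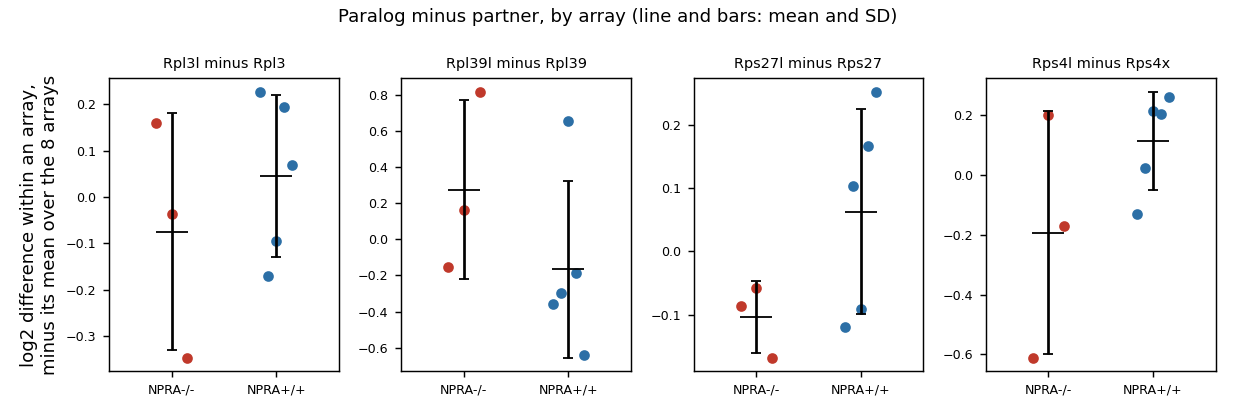
Log2 difference of each of 4 paralogs from its partner within an array, minus its mean over the 8 arrays, with NPRA-/- in red on the left and NPRA+/+ in blue on the right; line and bars are mean and SD. The groups overlap in all 4 pairs.

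The members also differed between arrays of one genotype. Each member's level was set against its own mean over the arrays, and the median of these deviations was taken per array. It was 0.34, 0.00 and 0.03 on the NPRA-/- arrays, against 0.11, -0.03, -0.06, -0.04 and -0.40 on the NPRA+/+ arrays. Genes of like signal had 0.07, 0.08 and 0.03 on NPRA-/- arrays, against -0.14, 0.05, 0.06, 0.01 and -0.11 on NPRA+/+ arrays. NPRA-/- replicate 1 was the highest NPRA-/- array for 66 members (80.5%, genes of like signal 46.4%, all genes 42.0%), NPRA+/+ replicate 1 the highest NPRA+/+ array for 47 (57.3%, like signal 24.8%, all genes 30.4%) and NPRA+/+ replicate 5 the lowest for 59 (72.0%, like signal 35.6%, all genes 20.7%). In 17 members (20.7%, like signal 11.3%, all genes 11.8%) replicate 1 of both genotypes lay more than 0.5 above the mean of the other arrays of its genotype. Rps3, Rpsa, Rps21, Rpl4, Rpl7a, Rpl8 and Rpl13a were among them; Rps21 had 1.36 in NPRA-/- and 1.85 in NPRA+/+, and Rpl4 had 1.13 in NPRA-/- and 1.40 in NPRA+/+. The brightest spot of an array read 290322, 137755 and 125373 on NPRA-/- arrays, against 323615, 120460, 115033, 144986 and 126204 on NPRA+/+ arrays, so both replicate 1 arrays reached the highest signals. Its part in these deviations was not tested.

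**Figure D4:**
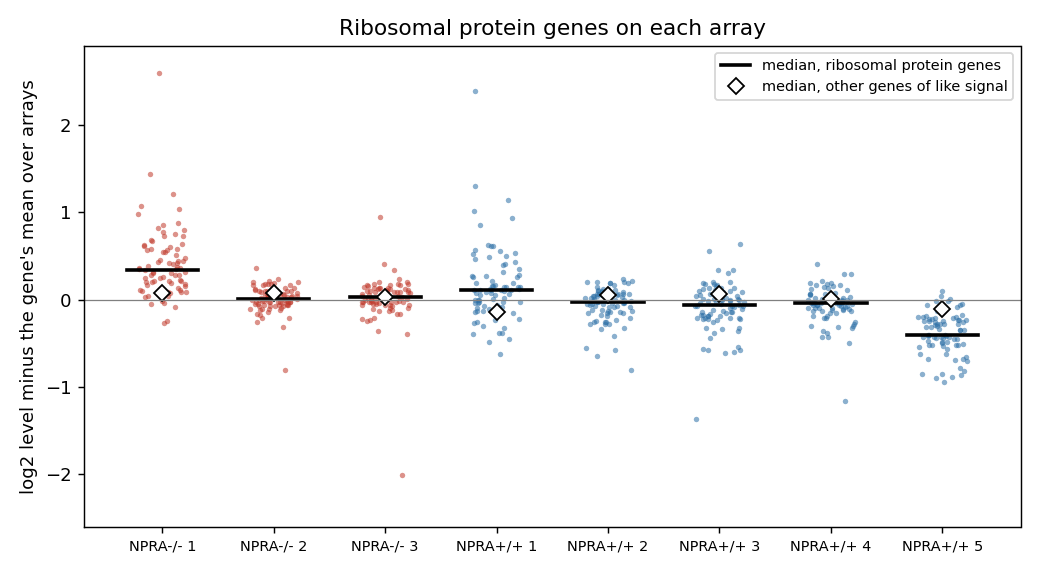
Deviation of each ribosomal protein gene (points) from its own mean over the arrays, on the log2 scale, for 3 NPRA-/- arrays in red and 5 NPRA+/+ arrays in blue, with the members' median as a black line and the median of other genes of like signal as a diamond. The members' median is highest on NPRA-/- 1 (0.34) and lowest on NPRA+/+ 5 (-0.40).

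On scan day 1 alone the members lay below the shift of all probes. Their median fitted change was 0.05 where that of all probes was 0.17, and 25 of 82 lay above the shift. Genes of like signal had a relative median of -0.17 there, and the members of -0.13. Rpl37, Rpl10l and Rps27a, 3 of 82 (3.66%), were higher in NPRA-/- at an adjusted p under 0.05 on that day, where 16.9% of all probes passed (2 arrays a genotype). Both NPRA+/+ arrays of that day share a source name number and a scan time group, and both NPRA-/- arrays share another scan time group. Rps27a, which is made as a fusion with ubiquitin, had a relative change of 0.27 there (adjusted p = 0.0436, limma), and Rpl10l was close to background. Leaving out NPRA+/+ replicate 1 gave 1 call, Rpl37 (1.22%), where 11.6% of all probes passed. Weights for each array gave 8 calls, all higher (9.76%), where 27.6% of all probes passed. Quantile normalization removed the shift and left a median fitted change of 0.01, with 44 of 82 above the median of all probes, and normexp background correction put the members' median at -0.20 relative to the shift.

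**Figure D5:**
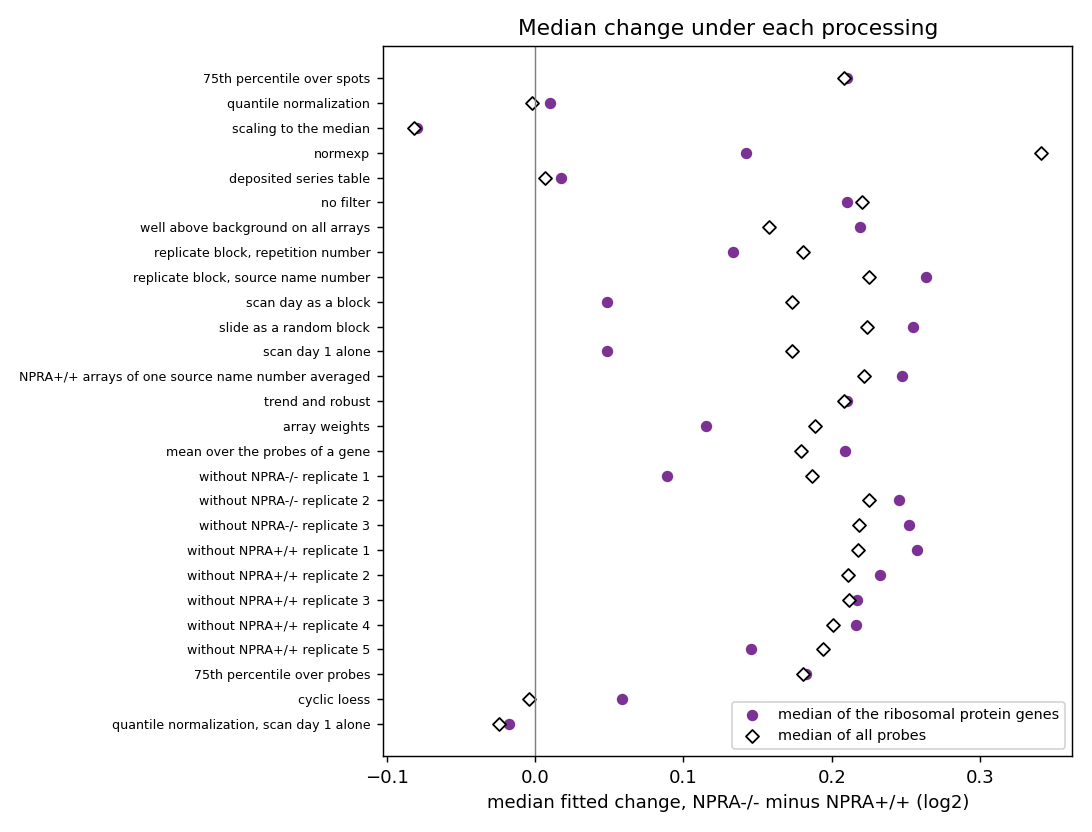
Median fitted change of the ribosomal protein genes (filled points) and of all probes tested (diamonds), NPRA-/- minus NPRA+/+ on the log2 scale, under each processing, one per row. Both medians are 0.21 with the 75th percentile over spots and lie near 0 with quantile normalization. The members' median lies at -0.20 relative to all probes with normexp. The row named slide groups arrays by equal scan date and time.

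Probes for one gene often differed. Of the 52 genes with several probes, 25 had relative changes of one sign and 27 of both, and 0 of the 169 member probes tested passed the threshold. Rps16 had 3 probes with relative changes of 0.19, -0.13 and -0.39, from the brightest to the dimmest. Rpl13 had 0.40 and 0.07 on its other probes, against -0.29. Rpsa had 0.10, 0.18 and -0.01 on its other probes. Ribosomal protein genes have many processed pseudogenes of near-identical sequence, and signal from a gene and its copies cannot be told apart on such probes.

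Other parts of the translation machinery had no call either. Of 8 measured ribosomal components outside the name rule, 0 passed, with a median relative change of 0.01; Rack1, a scaffold on the small subunit, was at 0.34 ± 0.28. Of 62 ribosome biogenesis genes 0 passed, with a median of -0.20. Nop58, a core protein of box C/D snoRNPs, was lowest in p among the lower ones at -0.92 ± 0.31 (adjusted p = 0.253, limma). It was at -0.93, -0.58 and 0.51 on NPRA-/- arrays, against 0.28, 0.41, 0.14, 0.71 and 0.35 on NPRA+/+ arrays. The groups overlapped, and on scan day 1 alone the relative change of Nop58 was -0.48 ± 0.40. Nol9, a kinase of rRNA processing, was at 0.29 ± 0.19. The 14 measured elongation factors and other TOP mRNAs had a median of -0.06, the 33 initiation factors of -0.14 and the 78 mitochondrial ribosomal proteins of -0.17, with 0 calls in each. Among 23 regulators of TOP translation and ribosomal protein genes (median -0.23, 0 calls), Rps6kb2, an S6 kinase, was at -3.14, -3.40 and -3.39 on NPRA-/- arrays, against -3.82, -3.80, -4.00, -4.16 and -4.05 on NPRA+/+ arrays. Its groups did not overlap, and the relative change was 0.45 ± 0.14 (adjusted p = 0.0756, limma). Mtor itself was at -0.47 ± 0.14. The cytosolic members had a median near the shift where these other translation lists, apart from the ribosomal components, lay below it. All 19053 genes tested, with 1 probe each, had a median of -0.05 relative to the shift, close to that of the elongation list. These differences were not tested. With quantile normalization the medians of these 6 lists lay between -0.046 and 0.056, and those of the elongation and initiation lists turned to 0.050 and 0.027, while the other 4 kept their sign.

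Markers of cell types were read for the same arrays. All 11 cardiomyocyte markers were well above background on all 8 arrays, with a summed level (log2) between 9.82 and 11.17 in NPRA-/- and between 8.91 and 10.87 in NPRA+/+. They had 0 calls and a median relative change of 0.44 (0.060 on scan day 1 alone). The 7 mesothelial markers had a median relative change of 1.85 and 1 call (Msln, adjusted p = 0.0498, limma), where 0.348% of all probes passed. With quantile normalization, or the 75th percentile over probes, 0 probes passed, so Msln was not called there. Of the 7, 3 were well above background on all 8 arrays, and the summed level of the list was between 0.31 and 0.85 in NPRA-/- and between -0.53 and 0.03 in NPRA+/+. The 8 erythroid markers had a summed level between 6.995 and 8.07 in NPRA-/- and between 6.53 and 7.49 in NPRA+/+, with 0 calls. Fibroblast, endothelial, smooth and skeletal muscle, macrophage, neutrophil, adipocyte, T cell and B cell lists had 0 calls each. Their highest median relative changes were those of skeletal muscle (0.34), T cell (0.29) and neutrophil markers (0.26). On scan day 1 alone these medians were 0.23, 0.38 and 0.73, and with quantile normalization 0.13, 0.15 and 0.10. The adipocyte median was 0.04, and 0.56 on scan day 1 alone. Well above background on all 8 arrays were 5 of 9 skeletal muscle, 7 of 11 T cell and 6 of 10 neutrophil markers. The part of these cells in the ribosomal protein values was not tested.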

How the data were processed

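The authors' deposited scanner files hold the linear intensity of each spot, from Agilent's Feature Extraction software (version 11.0.1.1, per the file headers), background-subtracted within the array and not scaled between arrays. The deposited series table holds log2 values, of unstated normalization; every column had a median of 7.05. Control spots were dropped, flagged outlier spots (162 to 410 per array) became missing, and spots of a probe were averaged as log2. The 75th percentile of each array's processed signal over its non-control spots was subtracted. Probes well above background (at least a share of 0.5 of their spots) on at least 3 of 8 arrays were tested (35329). Probes were named through RefSeq transcripts and the gene table of GRCm38.p6; of 39429 probes 27234 matched 1 symbol. Genotype was the only term of a two-sided limma test (version 3.58.1, R 4.3.3), with p-values adjusted by Benjamini-Hochberg across the probes tested and a threshold of 0.05; missing spots drop out of a probe's fit. The fit was tested on simulated probes with known changes and independent noise. The simulation held no effects shared by the probes of an array, so it does not test those. The labels do not link samples to animals, and p-values therefore reflect only how these samples vary. As a check of pairing, arrays with equal repetition numbers in the labels had correlated deviations (0.63, 0.28 and 0.36 across probes). The 0.63 belongs to the replicate 1 arrays, each the only array of its scan day. Their correlations with the unequally numbered arrays of the other genotype ran between -0.6 and -0.16. Some unequally numbered arrays correlated by up to 0.33. The unequally numbered pairs among replicates 2 and 3 were at 0.26 and 0.33, and all of these arrays were scanned on day 1. With NPRA+/+ replicates 4 and 5, of other numbers and another scan day, NPRA-/- replicates 2 and 3 correlated by 0.12 to 0.30. The check therefore cannot show whether arrays of equal number are paired.

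Named genes were the 8 highest and 8 lowest changes, the 4 brightest and 4 dimmest, members without overlap, the paralogs and partners, the stalk proteins and Rpsa, Rps6, Rpl5, Rpl11, Rps19 and Rpl13a, and up to 6 with a probe of the other sign. Of other function lists they came from the 4 members with the smallest p. Of the members this rule picks, 3 are not reported singly here, so the named genes fall short of these sets; the 3 stay in the counts and medians. Rps27a, Rps21, Rpl4 and Rpl8 were named after their values were seen. The members and lists were chosen with earlier results of these data known. Alternatives covered scaling, background correction, filters, blocks, array weights, probe choice and each array left out.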

Additional observations from a re-analysis of the deposited data

Results flagged for a closer look

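In the NPRA+/+ arrays, Rpsa stood apart on replicate 1, at 6.38, where the other 4 arrays lay between 4.50 and 5.02; the gap to the nearest array was 0.722 of the whole range, above Dixon's limit for 5 arrays. This was 1 of 39 values tested in this way, and chance flags about 1 group in 20. NPRA-/- replicate 1 was high for Rpsa too, but 3 arrays are too few for the same test.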

How the results depend on the processing

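The count of ribosomal protein genes past the threshold was 0 under 23 of 26 alternatives; it was 3 on scan day 1 alone, 8 with array weights, and between 0 and 1 when each array was left out. The count over all probes, 123, depended on the setting. It was 193 with no filter, 3 with probes above background on all arrays, 185 with the mean over the probes of a gene, 5979 on scan day 1 alone, 9761 with array weights and between 0 and 4088 with 1 array left out (4088 without NPRA+/+ replicate 1). It was 0 with the 75th percentile over probes in place of spots, quantile normalization, scaling to the median, normexp and the deposited series table. Scan day as a block, scan time group as a random block and averaging of arrays that share a source name number gave 0. The trended robust variance, cyclic loess and quantile normalization of scan day 1 gave 0 as well. As a replicate block, the repetition number gave 0 probes and the source name number 22. The scaling over spots was kept after the counts of both percentile scalings, 123 and 0, had been seen. The 75th percentile over probes, cyclic loess and quantile normalization of scan day 1 were chosen after seeing the data.

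The median fitted change of the members, 0.21, was -0.080 with scaling to the median and -0.018 with quantile normalization of scan day 1, and ran between 0.09 and 0.26 with 1 array left out (0.09 without NPRA-/- replicate 1). Relative to all probes it ran between -0.20 and 0.06 and was negative under 8 alternatives. Of 34 named members, 13 kept the sign of their relative change under every alternative that gave a value (Rpl24, Rpl26, Rpl29, Rpl32, Rpl37, Rpl39, Rpl3l, Rpl6, Rplp0, Rplp2, Rps4l, Rps4x and Rps9), and the other 21 changed sign under at least 1; the cause was not tested. The relative changes with the other sign follow. With quantile normalization the values were Rpl10 -0.18, Rpl3 0.083, Rps19 0.050, Rps27 -0.10, Rps27l 0.075. With normexp the values were Rpl10 -0.20, Rpl10l 0.23, Rpl22 -0.096, Rpl5 -0.21, Rplp1 -0.24, Rps13 -0.022, Rps16 -0.078, Rps27 -0.11, Rps29 -0.015, Rps6 -0.16. In the deposited series table the values were Rpl10 -0.21, Rpl18 0.064, Rpl3 0.082, Rps19 0.051, Rps27 -0.12, Rps27l 0.075, Rps3 0.49, Rps6 -0.0004. With the repetition number as a replicate block the values were Rpl10 -0.014, Rpl13a -0.069, Rplp1 -0.0055, Rps27 -0.023, Rps6 -0.055. With scan day as a block, and within 0.001 of these on scan day 1 alone, the values were Rpl10 -0.0082, Rpl10l 0.60, Rpl11 -0.12, Rpl13a -0.13, Rplp1 -0.027, Rps13 -0.015, Rps27 -0.039, Rps6 -0.21. With array weights the values were Rpl10l 0.42, Rpl11 -0.017, Rplp1 -0.017, Rps6 -0.18. With quantile normalization of scan day 1 alone the values were Rpl10l 0.065, Rpl11 -0.021, Rpl39l -0.062, Rps19 0.098, Rps27l 0.035, Rps6 -0.072. With the mean over the probes of a gene the values were Rpl13 0.063, Rpl22 -0.059, Rps16 -0.083, Rps3 0.57. With cyclic loess the values were Rpl3 0.062, Rps19 0.065, Rps27l 0.045. With no filter on dim probes the values were Rpl5 -0.0017, Rplp1 -0.0015. With scan time group as a random block the values were Rpl5 -0.021. With the source name number as a replicate block the values were Rps3 2.30. Leaving out 1 array at a time, the relative change ran between -0.016 and 0.068 for Rpl10, between -0.19 and 0.25 for Rpl10l, between -0.027 and 0.34 for Rpl11, between -0.12 and 0.086 for Rpl5, between -0.028 and 0.56 for Rpl7a, between -0.025 and 0.035 for Rplp1, between -0.023 and 0.15 for Rps27, between -1.67 and 0.79 for Rps3, between -0.22 and 0.29 for Rps6, between -0.099 and 0.71 for Rpsa. Among members that kept their sign, values that moved by over 1.5 times ran between 0.088 and 0.45 for Rpl24, between 0.22 and 0.54 for Rpl32, between -0.14 and -0.065 for Rpl39, between -0.28 and -0.10 for Rpl3l, between 0.14 and 0.42 for Rpl6, between 0.15 and 0.46 for Rplp0, between 0.18 and 0.34 for Rplp2, between -0.35 and -0.089 for Rps4x.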
